A study of Mus musculus with 6 samples.

Results

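Isolated zinc finger genes are here the Zfp genes of the mouse that have at most 1 other Zfp gene nearby. They were taken from the RefSeq gene table of GRCm38.p6 as the protein-coding genes named Zfp and a number, without Zfp36 and its Zfp36l relatives, that had at most 1 other such gene starting within 500 kb on the same chromosome. The rule found 161 genes among 393 Zfp genes and 21887 protein-coding genes on the nuclear chromosomes. Of the 161 genes, 125 had no other Zfp gene in that window and 36 had 1. The other 232 Zfp genes, called clustered here, had at least 2. For some of the 36, such as Zfp526, the 1 other gene was itself among these 232, so they need not lie apart from clusters.

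The series concerns thymine DNA glycosylase in cancer cells that lack p53, and profiled chromatin of the mouse melanoma line B16 by CUT&Tag. This method tethers the Tn5 transposase to an antibody on chromatin, so that DNA beside the antibody's target is cut and tagged for sequencing. The labels name 6 libraries. The peak lists of 2 libraries from wild-type B16 cells in standard serum medium were used, 1 for H3K4me3 (histone H3 trimethylated at lysine 4, found at active and CpG-rich promoters) and 1 for p300 (the acetyltransferase Ep300, found at active enhancers and promoters). Each antibody has 1 library with no replicate, so values are given as descriptions without tests, and the spread between cultures is unknown. The remaining 4 libraries, made with an H3K9me3 antibody from wild-type, Tdg knockout, Trp53 knockout and double knockout cells by their titles, were not analysed here. No comparison of genotypes was therefore made.

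Most Zfp genes encode proteins with rows of C2H2 zinc fingers, in which a zinc ion holds each finger and successive fingers read successive stretches of DNA. Many carry a KRAB domain, which binds the corepressor Trim28 and through it recruits Setdb1, the HP1 proteins and H3K9 methylation, often at transposable elements. Genes of the KRAB family spread by tandem duplication and mostly lie in clusters. The isolated genes hold many older family members with individual roles in transcription, RNA metabolism, development and mitosis.

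The H3K4me3 list held 27019 peaks on nuclear chromosomes and the p300 list 6512. Read totals are unknown. The whole number of reads at each summit, the pileup, was recovered from the deposited fold enrichment and p-value, and its median was 80 reads in the H3K4me3 list and 39 in the p300 list. The smallest listed summits held 15 and 14 reads. Where no peak is reported for a gene, weaker signal was not detectable at this depth. Among 7 pigment cell genes 6 had H3K4me3 at an end (Mitf, Sox10, Tyr, Tyrp1, Dct and Pmel) and Mlana had it inside the gene, while of 8 markers of other cells 1 had it at an end (Col1a1, a fibroblast collagen). Pecam1, a marker of endothelial cells, had 3 peaks inside the gene (up to a fold of 7.87), and the remaining markers Ptprc, Epcam, Krt8, Cd3e, Alb and Adgre1 had none in the gene or within 1 kb. Over all protein-coding genes 50.5% had H3K4me3 at an end, with a median fold of 7.28. The 6 pigment cell genes had a lower median of 4.99, from 2.01 in Sox10 to 8.16 in Mitf, and Col1a1 had 6.55.

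The promoters of the members at the extremes of both lists are shown first. RefSeq promoters of GRCm38.p6 run from 250 bases before a start to 50 bases after it, and the table matched 127 of the 161 genes. Printed 5′ to 3′ along the gene are those of Zfp91 (chr19:12796074-12796373, minus strand), Zfp97 (chr17:17121133-17121432, plus strand) and Zfp511 (chr7:140036141-140036440, plus strand), which are 3 of the 4 members with the highest p300 folds. Then come Zfp72 (chr13:74390780-74391079, minus strand) and Zfp950 (chr19:61140791-61141090, minus strand), the members with the highest H3K4me3 folds. The last are Zfp804b (chr5:7344329-7344628, minus strand), Zfp804a (chr2:82053408-82053707, plus strand) and Zfp541 (chr7:16071595-16071894, plus strand), which are among the longest members without H3K4me3. Capitals mark matches, on either strand, to any of 10 short motifs that are named further on.
Zfp91: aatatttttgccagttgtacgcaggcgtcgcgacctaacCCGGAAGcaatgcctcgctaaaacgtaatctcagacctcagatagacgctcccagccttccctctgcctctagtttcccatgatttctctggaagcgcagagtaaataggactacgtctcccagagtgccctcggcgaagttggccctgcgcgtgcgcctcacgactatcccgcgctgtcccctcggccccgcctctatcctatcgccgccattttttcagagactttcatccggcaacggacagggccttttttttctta
Zfp97: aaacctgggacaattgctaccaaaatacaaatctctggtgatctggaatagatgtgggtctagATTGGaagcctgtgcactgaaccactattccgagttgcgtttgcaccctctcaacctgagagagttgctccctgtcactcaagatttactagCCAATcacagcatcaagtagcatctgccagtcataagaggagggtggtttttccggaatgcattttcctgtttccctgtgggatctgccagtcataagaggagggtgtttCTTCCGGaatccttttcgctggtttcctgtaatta
Zfp511: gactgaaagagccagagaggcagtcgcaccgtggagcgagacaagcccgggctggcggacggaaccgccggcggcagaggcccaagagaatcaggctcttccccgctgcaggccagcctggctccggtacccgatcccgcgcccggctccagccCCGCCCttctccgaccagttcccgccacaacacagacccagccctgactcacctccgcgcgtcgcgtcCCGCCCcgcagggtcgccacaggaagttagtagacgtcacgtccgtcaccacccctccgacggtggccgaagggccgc
Zfp72: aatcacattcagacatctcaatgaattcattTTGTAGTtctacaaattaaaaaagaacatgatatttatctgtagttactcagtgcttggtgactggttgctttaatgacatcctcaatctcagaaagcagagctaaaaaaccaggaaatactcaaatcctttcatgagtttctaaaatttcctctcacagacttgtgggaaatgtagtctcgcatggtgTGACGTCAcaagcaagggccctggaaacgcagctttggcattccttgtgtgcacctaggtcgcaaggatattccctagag
Zfp950: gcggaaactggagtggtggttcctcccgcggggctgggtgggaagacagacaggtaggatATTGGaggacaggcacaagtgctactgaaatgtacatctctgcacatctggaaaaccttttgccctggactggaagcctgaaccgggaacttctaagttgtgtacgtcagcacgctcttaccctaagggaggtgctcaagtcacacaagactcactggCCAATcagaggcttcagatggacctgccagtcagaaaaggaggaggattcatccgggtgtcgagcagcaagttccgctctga
Zfp804b: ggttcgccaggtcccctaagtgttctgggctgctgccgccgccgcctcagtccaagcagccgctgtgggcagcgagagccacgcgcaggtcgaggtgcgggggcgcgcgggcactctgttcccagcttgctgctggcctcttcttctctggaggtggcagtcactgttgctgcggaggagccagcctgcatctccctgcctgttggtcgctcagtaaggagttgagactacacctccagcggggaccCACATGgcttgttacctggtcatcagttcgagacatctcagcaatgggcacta
Zfp804a: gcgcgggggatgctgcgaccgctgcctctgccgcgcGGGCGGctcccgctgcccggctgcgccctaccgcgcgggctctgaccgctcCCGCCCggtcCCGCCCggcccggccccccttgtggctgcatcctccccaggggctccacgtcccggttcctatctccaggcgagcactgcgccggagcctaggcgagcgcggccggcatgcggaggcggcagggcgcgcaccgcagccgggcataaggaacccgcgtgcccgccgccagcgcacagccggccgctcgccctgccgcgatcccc
Zfp541: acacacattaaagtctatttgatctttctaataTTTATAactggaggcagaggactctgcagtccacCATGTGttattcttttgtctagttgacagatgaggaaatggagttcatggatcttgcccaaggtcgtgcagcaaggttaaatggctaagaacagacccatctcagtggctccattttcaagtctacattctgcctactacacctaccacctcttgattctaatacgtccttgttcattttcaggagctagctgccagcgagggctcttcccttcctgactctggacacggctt
The first 5 of these promoters each lay under an H3K4me3 peak and the last 3 under none. The Zfp91, Zfp97 and Zfp511 promoters also lay under a p300 peak. Base composition did not sort them. Zfp804a, with no peak of either kind, was 79.3% G and C and had 45 CpG dinucleotides, and Zfp511, with both peaks, was 70.3% G and C and had 33. Zfp72, with the highest H3K4me3 fold of all members, was 40% G and C and had 4 CpG.

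A gene was counted as marked at an end when a peak came within 1 kb of either of its annotated ends. H3K4me3 was at an end of 120 isolated Zfp genes (74.5%), against 50.5% of all protein-coding genes. Among the 232 clustered Zfp genes it was 180 (77.6%). The share was 72.8% for Zfp genes with no other in the window, 80.6% with 1, 75.6% with 2 and 78.0% with 3 or more. Just inside the rule were thus 29 of 36 genes and just outside it 31 of 41. Zbtb genes, zinc finger factors with a BTB domain, stood at 85.4% (35 of 41), and KLF and SP genes, which bind GC-rich boxes, at 65.4% (17 of 26). Counted over the whole gene with 1 kb either side, 142 isolated genes had H3K4me3 (88.2%), against 58.9% of all genes.

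p300 was at an end of 35 isolated Zfp genes (21.7%), against 13.5% of all protein-coding genes and 34 of the 232 clustered Zfp genes (14.7%). KLF and SP genes had p300 at 42.3%, and Zbtb genes at 24.4%. All 35 isolated genes also had H3K4me3 at an end, and in all 35 the strongest p300 peak there overlapped an H3K4me3 peak. Since p300 at an end came almost only with H3K4me3 (31 of all protein-coding genes had it without), the share among genes with H3K4me3 at an end is the closer comparison. It was 29.2% of the 120 isolated genes, 18.9% of the 180 clustered genes and 26.5% of all genes, so the isolated genes were near the background on that count. Within 50 kb of an end, 78 isolated genes had a p300 peak (48.4%), against 43.6% of all genes and 42.7% of clustered Zfp genes.

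**Figure D1:**
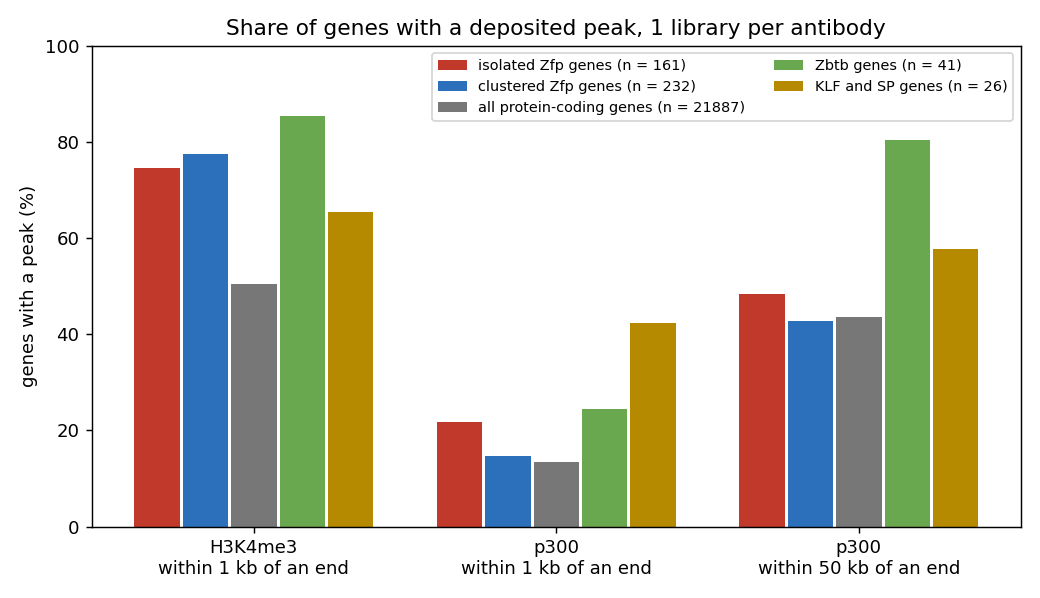
Share of genes (vertical axis, in percent) with a deposited peak of H3K4me3 within 1 kb of an end, p300 within 1 kb and p300 within 50 kb, for 5 sets of genes, with 1 library per antibody and so no error bars. Isolated Zfp genes stood at 74.5%, 21.7% and 48.4%, beside 50.5%, 13.5% and 43.6% of all protein-coding genes.

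The strongest H3K4me3 peak at an end of an isolated gene had a median fold enrichment of 7.69 (quartiles 6.33 and 10.2, lowest 2.84, highest 13.7). Fold enrichments are the authors' own values and are used only within a list. The median was 10.0 in clustered Zfp genes and 7.28 in all genes. It was 7.26 in genes with no other Zfp gene in the window, 9.97 with 1, 9.13 with 2 and 10.3 with 3 or more, so the genes with no neighbour had the lowest median of the 4 sets. The pileups at these summits were closer together, with medians of 137 reads in isolated, 144.5 in clustered and 132 in all genes. The background under the summit, in the sense of the denominator of the fold, was 16.02 reads in isolated and 13.2 in clustered genes, and 16.7 in all. The part of this background in the fold difference was not tested. Peak widths had medians of 1050 bp in isolated genes, 1034.5 bp in clustered genes and 1109 bp in all genes.

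Zfp72 had the highest H3K4me3 fold (13.73, from 104 reads over 890 bp). It was followed by Zfp950 (13.70, from 201 reads over 785 bp), Zfp960 (13.60, from 169 reads), Zfp97 (13.19, from 193 reads) and Zfp169 (13.11, from 198 reads). Zfp619 (12.91), Zfp317 (12.82), Zfp932 (12.12) and Zfp248 (12.09) came close behind. Zfp521, a factor of neural, bone and B cell development, reached 12.76 with the smallest summit of all members, 46 reads over 300 bp on a background of 2.68 reads. Fold and pileup thus ordered the members differently. The highest pileups, picked out after their values were seen, belonged to Zfp830, a splicing-associated protein (318 reads, fold 11.45), Zfp248 (268 reads), Zfp687 (267 reads at a fold of 6.63), Zfp142 (260 reads) and Zfp39 (260 reads). The lowest fold belonged to Zfp276 (2.84, from 74 reads over 342 bp).

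**Figure D2:**
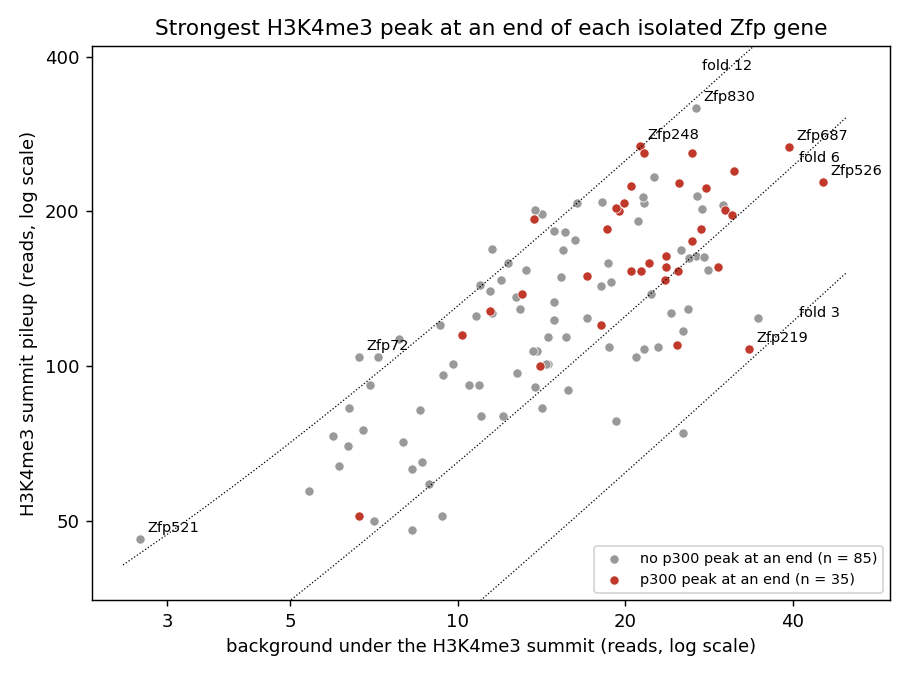
Summit pileup against the background under the summit, both in reads on log axes, for the strongest H3K4me3 peak at an end of each of 120 isolated Zfp genes. Dotted lines mark equal fold. The 35 genes with p300 at an end (red) lay at a median pileup of 175 and background of 22.0 reads, and the 85 without (grey) at 120 and 14.2 reads.

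The widest H3K4me3 peaks at an end were those of Zfp637 (2144 bp, 153 reads), Zfp672 (2119 bp, 197 reads), Zfp687 (2073 bp, 267 reads), Zfp46 (2068 bp, 206 reads) and Zfp277 (1960 bp, 208 reads). Width and fold did not go together among them, since Zfp637, Zfp672, Zfp687 and Zfp46 had folds between 5.94 and 6.69, below the members' median, and Zfp277 had 9.24. More than 1 H3K4me3 peak lay at the ends of 27 of the 120 genes, beside 9 of 180 clustered Zfp genes and 2505 of all 11045 genes with H3K4me3 at an end.

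Members could share these peaks with other genes. The strongest H3K4me3 peak at an end also lay within 1 kb of an end of another protein-coding gene in 21 of 120 members (17.5%), and the p300 peak in 12 of 35 (34.3%). Zfp91 shared both peaks with Lpxn, Zfp511 with Tubgcp2, Zfp142 with Bcs1l, Zfp526 with Dedd2, Zfp513 with Ppm1g and Zfp473 with Vrk3. The H3K4me3 peak of Zfp830 also lay at an end of Cct6b and that of Zfp410 at an end of Ptgr2. At such shared ends the peak cannot be given to one gene. No peak at an end was the strongest of 2 members. An end within 1 kb of another gene's end was found for 26 of the 161 members (16.1%), against 24.8% of all genes. Among genes with H3K4me3 at an end this share was 19.2% of members and 37.5% of all. Among those with both H3K4me3 and p300 at an end it was 31.4% of members and 45.8% of all. Members thus had such ends less often than the background.

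Strand was known for the 127 members with a promoter entry. H3K4me3 lay at the 5′ end of 99 of them (78.0%) and at the 3′ end of 1, Zfp512b, which had it at both ends. Over all genes with a promoter entry the shares were 49.5% and 6.12%. p300 lay at the 5′ end of 29 members (22.8%, all genes with a promoter entry 13.3%) and at the 3′ end of 1 (0.79%, all genes 1.47%). That 1 was again Zfp512b, where p300 was at the 3′ end only and the peak also lay at an end of Uckl1. Measured along the gene from the nearest annotated start, the H3K4me3 summits of 99 members had a median position of −13 bp, with 57 within 200 bp and 84 within 500 bp. The p300 summits of 30 members had a median of −20.5 bp, with 16 within 200 bp and 24 within 500 bp. In clustered Zfp genes the H3K4me3 median was 58.5 bp, with 101 and 142 of 156 summits within these distances. Their p300 median was 40 bp, with 15 and 24 of 27. Summit positions were not measured over all genes. In Zfp91 the p300 summit was at −13 bp and the H3K4me3 summit at −211 bp, in Zfp97 they were at −159 and −59 bp, and in Zfp511 at 81 and 348 bp.

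**Figure D3:**
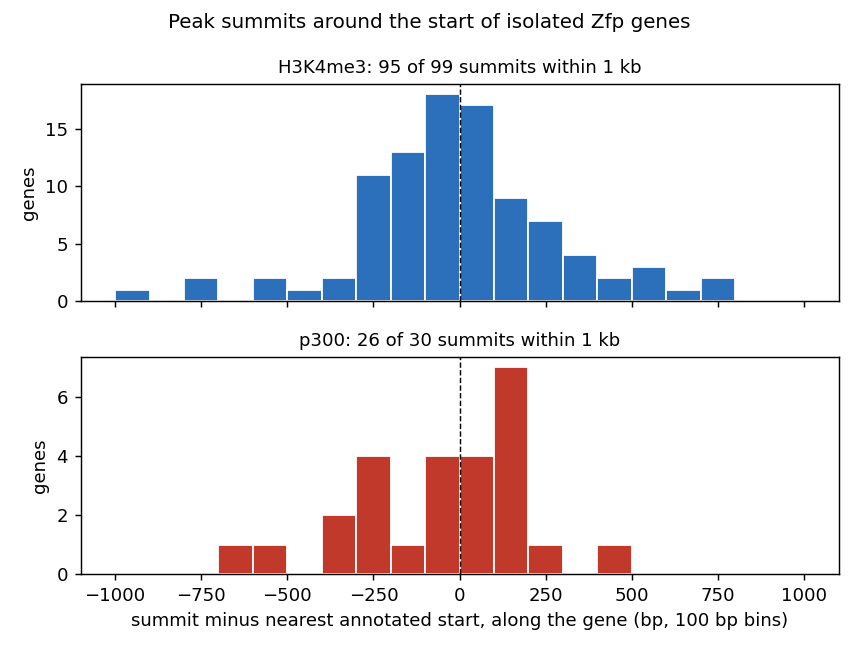
Number of isolated Zfp genes (vertical axis) by the position of the strongest peak's summit from the nearest annotated start, in bp along the gene, in bins of 100 bp. Within 1 kb lay 95 of 99 H3K4me3 summits and 26 of 30 p300 summits, spread to both sides of the start.

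Among the 35 members with p300 at an end, the p300 fold had a median of 6.75 (quartiles 5.44 and 8.27), beside 5.96 in clustered Zfp genes and 5.80 in all genes with p300 at an end. By number of other Zfp genes in the window, the median was 6.92 with none (27 genes) and 5.07 with 1 (8 genes). Just outside the rule it was 6.07 with 2, and it was 5.96 with 3 or more. The higher median of the members thus came from genes with no other Zfp gene in the window. The p300 summits of the 35 members held a median of 40 reads, against 30 in clustered genes and 37 in all. Zfp438 had the highest fold (12.38, from 57 reads over 498 bp), followed by Zfp91, a ubiquitin ligase of the NF-kappaB pathway (10.73, from 85 reads over 959 bp). Zfp97 (9.14, from 27 reads over 345 bp) and Zfp511 (9.11, from 46 reads over 448 bp) came next. The fold of Zfp97 rested on fewer reads than the median, over a background of 2.06 reads, the lowest of the 35.

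Zfp1 (8.78), Zfp788 (8.63), Zfp638 (8.48), Zfp367 (8.42), Zfp958 (8.35) and Zfp142 (8.19) completed the 10 highest p300 folds. Zfp367 had the highest p300 pileup of the members (120 reads), Zfp219, a partner of Sox9 in cartilage, had 108, and Zfp655 had 104. The lowest fold was that of Zfp651 (3.53, from 27 reads). The order of the 35 genes by p300 fold was not their order by H3K4me3 fold, since Zfp91 and Zfp219 had H3K4me3 folds of 6.71 and 3.17, below the members' median in that list, while Zfp9 had 10.08 with a p300 fold of 4.04.

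**Figure D4:**
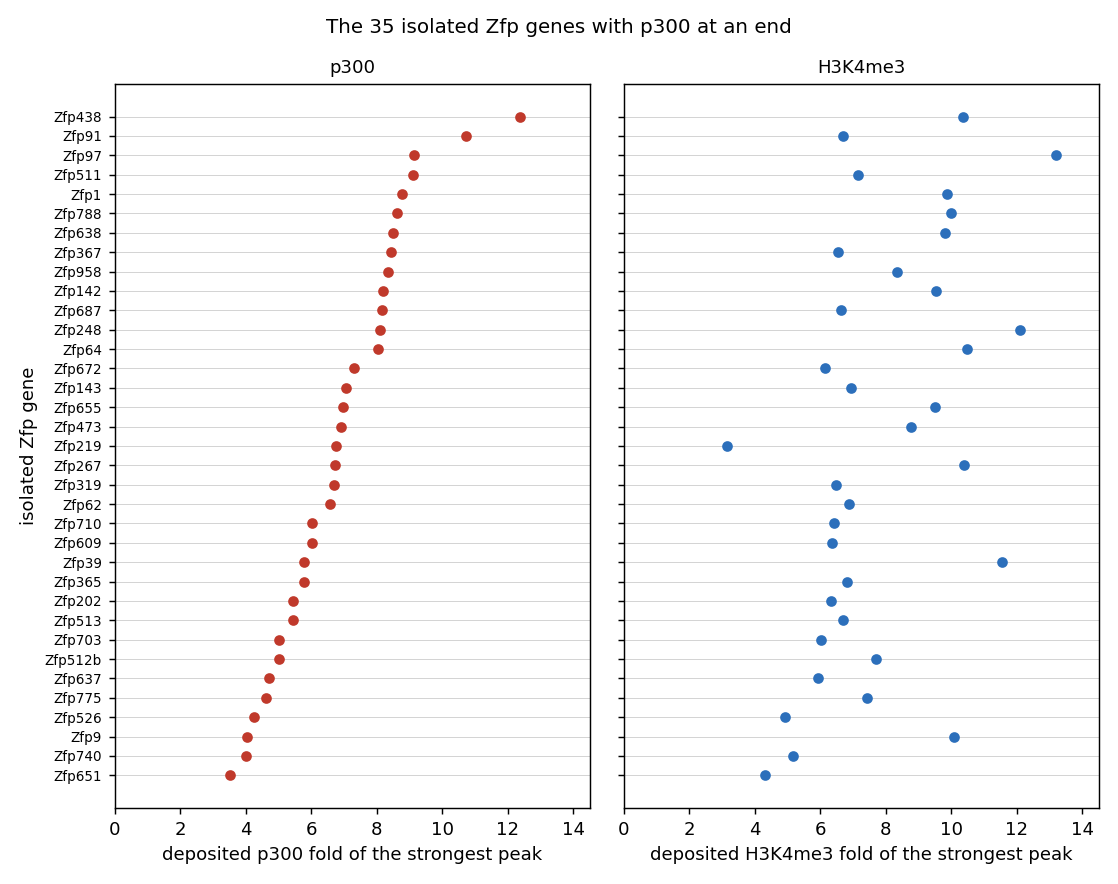
Deposited fold enrichment (horizontal axes, starting at 0) of the strongest p300 peak (left) and H3K4me3 peak (right) at an end of each of the 35 isolated Zfp genes with p300 there, both ordered by p300 fold. The lists have separate axes because their folds are not compared in size. p300 ran from 3.53 in Zfp651 to 12.38 in Zfp438, and the order of the H3K4me3 folds differed.

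Isolated genes with p300 at an end (35) had taller and wider H3K4me3 peaks there than those with H3K4me3 alone (85). The median pileup was 175 against 120 reads, and the median width 1287 against 961 bp. The fold went the other way, at 6.95 against 8.03, with a background of 22.0 against 14.2 reads. All protein-coding genes showed the same gap in pileup (171 against 118 reads) and width (1332 against 1028 bp), and 7.21 against 7.32 in fold. When all genes with H3K4me3 at an end were put in 5 equal classes by the −log10 q of that peak, the share with p300 at an end was 8.65%, 19.5%, 27.1%, 32.6% and 44.6% from the weakest to the strongest class. Among isolated Zfp genes it was 3 of 15, 2 of 26, 5 of 20, 12 of 27 and 13 of 32. At the class shares of all genes 34.9 isolated genes would hold p300, and 35 did. For clustered Zfp genes the same sum was 58.6, and 34 did, although 60 of the 180 were in the strongest class. The isolated genes therefore stood at the background for their H3K4me3 strength and the clustered genes below it, with no test of either.

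**Figure D5:**
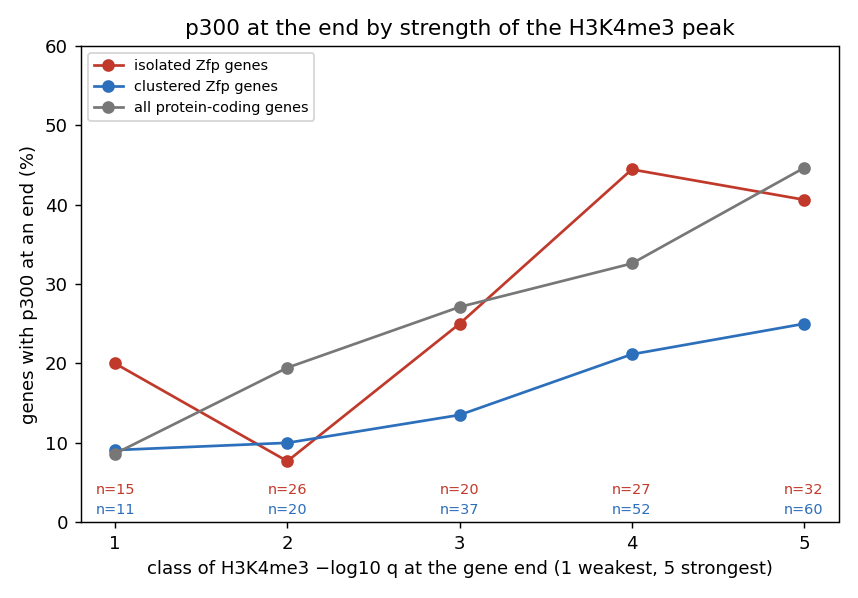
Percent of genes that had p300 at an end (vertical axis) in 5 classes of H3K4me3 −log10 q, weakest to strongest, for isolated and clustered Zfp genes and all protein-coding genes, with the number of isolated (upper) and clustered (lower) genes printed per class. In the strongest class the shares were 40.6%, 25% and 44.6%.

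Beyond the ends, 83 members had no p300 peak within 50 kb, 43 had 1, 21 had 2, 7 had 3, 5 had 4 and 2 had 5. The 2 genes with 5 were Zfp526 and Zfp651. Zfp1, Zfp710, Zfp239, Zfp143 and Zfp341 had 4. For 15 members the nearest p300 peak was over 1 Mb away, a count not made over all genes. The median distance to the nearest p300 peak was 65671 bp in members and 72943 bp in all genes. Of the 43 genes with p300 within 50 kb but not at an end, the strongest peak overlapped H3K4me3 in 41, the exceptions being Zfp276 (fold 5.48) and Zfp827 (5.93). This overlap was not counted over all genes, so it is not shown to be particular to the members. Such p300 peaks can lie at promoters of neighbouring genes. The strongest near Zfp867 (9.29, 97 reads) lay 1702 bp from its end, and the strongest near Zfp541 (8.80, 111 reads) lay 1824 bp from its end, and the genes with the nearest ends to these members were Jmjd4 and Napa.

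The highest fold near a member was 13.95, at chr13:74528640-74530839 beside Zfp825. This peak held 901 reads over 2200 bp, the 8th highest pileup in the p300 list, and the H3K4me3 peak it overlapped held 850 reads over 2239 bp, the 8th highest in its own list. Both libraries were high at the same place, and what part repeated sequence has in it was not tested. Zfp960 and Zfp97, a pair of neighbours, were credited with the same p300 peak, which lay at the end of Zfp97 and 31413 bp from Zfp960. Zfp592 (8.26) and Zfp821 (8.12) followed.

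H3K4me3 was at no end of 41 members. In 22 of these it lay inside the gene, which was long (median 64229 bp, against 21803 bp for all members), and in 7 of the 22 it lay over a start in the promoter table. Those 7 were Zfp558 (fold 13.39 over that start), Zfp791 (12.77), Zfp57 (9.66), Zfp385b (8.18), Zfp800 (6.03), Zfp341 (5.45) and Zfp821 (4.91). Over all protein-coding genes 1848 (8.44%) had H3K4me3 inside the gene but at no end, against 13.7% of members. Their median length was 50092.5 bp, against 17169 bp for all genes, and in 589 of the 1848 it lay over a start. Greater length and marked inner starts were thus general. Zfp217, a gene amplified in breast cancers, had 2 peaks inside, up to a fold of 11.60. Zfp423, a factor of fat cell and cerebellar development, had 5 peaks (up to 10.39), Zfp462 had 3 (up to 9.49), and Zfp536, an inhibitor of neuronal differentiation, had 8 (up to 7.76). Zfp286 had 1 (7.93). The count at gene ends therefore misses marked starts inside genes, in short ones such as Zfp57 (9567 bp) as well as in long ones such as Zfp385b (407085 bp).

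In 19 members no H3K4me3 peak was in the gene or within 1 kb. Zfp804b (575349 bp) and Zfp804a (209751 bp), a gene linked to psychiatric disease in people, were the longest, and neither had a p300 peak within 1 Mb. Next in length were Zfp182, Zfp541 (a meiotic factor of the testis), Zfp711 (a partner of the demethylase Phf8), Zfp990, Zfp616, Zfp735 and Zfp996. Zfp652, Zfp941, Zfp612, Zfp648, Zfp488 (a factor of oligodendrocytes) and Zfp42 (known as Rex1, a marker of pluripotent cells) were also among them. Zfp541, Zfp941 and Zfp296 were the 3 of the 19 with a p300 peak within 50 kb (15.8%). Of all 8994 genes without H3K4me3 in the gene or within 1 kb, 18.7% had 1, so the members were near the background. Among those of the 19 with a promoter entry the median ratio of observed to expected CpG was 0.46, against 0.75 for members with H3K4me3 at an end. Over all protein-coding genes the same ratios were 0.21 and 0.78. The gap was thus general and wider over all genes, and the unmarked members stood above unmarked genes as a whole.

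By role, the counts that follow stand beside H3K4me3 at an end of 50.5% of all protein-coding genes and 74.5% of isolated Zfp genes, and p300 at an end of 13.5% and 21.7%. Of the silencing and chromatin list 10 genes were members. H3K4me3 was at an end of 6 (median fold 6.14) and p300 at an end of 1, Zfp91. Zfp410, an activator of the remodeller gene Chd4, had an H3K4me3 fold of 9.94 from 233 reads, and Zfp932, a KRAB repressor of retroviral elements, had 12.12 from 144 reads. Zfp644, a partner of the H3K9 methyltransferases G9a and GLP, had 5.28 from 48 reads, Zfp827, which brings NuRD to telomeres, 5.54, and Zfp451, a SUMO ligase, 5.58. Zfp57, the keeper of methylation at imprinted regions, and Zfp462 and Zfp618 had H3K4me3 only inside the gene. Zfp296 had none.

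Of 19 members of the development and lineage list, 11 had H3K4me3 at an end (median fold 6.37) and 4 had p300 (Zfp219, Zfp609, Zfp64 and Zfp703). Zfp64, an activator of the leukaemia gene Kmt2a, had the strongest p300 of these (8.03, with H3K4me3 at 10.49 from 224 reads). Zfp703, a breast cancer oncogene, had p300 at 5.01, and Zfp609 at 6.01. Zfp281, a pluripotency factor also active in other cells, had H3K4me3 at 8.42 and no p300 at an end. The epidermal factor Zfp750 and Zfp42 had no H3K4me3, and Zfp366, Zfp503 and Zfp608 had it inside the gene, with 7 peaks in Zfp608.

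All 11 members of the RNA, ribosome and mitosis list had H3K4me3 at an end (median fold 7.14) and 1 had p300 there. The 1 with p300 was Zfp638, an RNA-binding nuclear protein (p300 8.48 from 70 reads). H3K4me3 folds in the list ran from 4.59 in Zfp593, a factor of the large ribosomal subunit, to 11.45 in Zfp830. Zfp622, which acts in ribosome maturation, had 8.16 from 159 reads, and Zfp207, a spindle assembly factor known as BuGZ, 7.14 from 202 reads.

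Of 5 members linked to p53, 4 had H3K4me3 at an end and Zfp385b had it inside the gene. Zfp365, a p53 target that guards genome stability, was the 1 with p300 at an end (5.78 from 21 reads), with H3K4me3 of 6.81 from 51 reads. Zfp385a, a cofactor of p53 known as Hzf, had 6.07 from 59 reads, Zfp148 had 4.79 from 104 reads, and Zfp346, a double-stranded RNA binding protein, 5.98 from 138 reads. These are values at gene ends, in wild-type cells alone. Inside the gene H3K4me3 reached 9.89 from 192 reads in Zfp385a and 9.24 from 77 reads in Zfp148. A p300 peak of 7.29 from 118 reads lay 2107 bp from an end of Zfp346, and 1 of 6.24 from 37 reads inside Zfp385a. All 5 general promoter factors had H3K4me3 at an end and a p300 peak within 50 kb, which 43.6% of all genes and 48.4% of isolated Zfp genes had. In Zfp143, whose protein binds ACTACAA promoters, and in Zfp740 p300 lay at an end (7.06 from 55 reads and 4.01 from 33 reads). The H3K4me3 folds were 10.26 in Zfp691, 7.69 in Zfp384, 6.95 in Zfp143, 5.18 in Zfp740 and 4.82 in Zfp692.

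Among 17 measured genes for the partners through which KRAB proteins silence, 15 had H3K4me3 at an end (all genes 50.5%), 17 had it in the gene or within 1 kb (all genes 58.9%), and 6 had p300 at an end (all genes 13.5%). These 6 were Trim28 (p300 5.53), Atf7ip (9.57), Cbx3 (8.45), Cbx5 (6.04), Morc2a (7.15) and Uhrf1 (6.16). Setdb1, the H3K9 methyltransferase of the complex, had H3K4me3 of 6.83 from 94 reads and no p300 at an end.

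The promoter table gave 300 bases for the most upstream start of 127 isolated, 201 clustered and 17492 protein-coding genes. Isolated Zfp promoters were 58.7% G and C in the median and their CpG ratio was 0.72, beside 53.3% and 0.56 in clustered genes and 56.3% and 0.58 in all. Among genes with H3K4me3 at an end the order against all genes was the reverse, with 59.0% and 0.75 in isolated and 61.3% and 0.78 in all. The 10 motifs were searched on both strands, each counted on its own even where matches overlap. CCGGAAG, the core bound by ETS factors, was in 22.8% of isolated promoters, 21.4% of clustered and 11.9% of all, and CCAAT, the box bound by NF-Y, in 45.7%, 52.2% and 39.2%. Since promoters of genes with H3K4me3 at an end differ in composition from others, the closer comparison is among those genes. The peak need not lie over the promoter that was searched. Of these genes, 92 of 99 isolated and 7764 of all 8964 had H3K4me3 over any promoter in the table. Among genes with H3K4me3 at an end, CCGGAAG was in 26.3% of isolated and 19.8% of all promoters, and CCAAT in 50.5% and 39.9%. ACTACAA was in 9.09% and 4.62% there, and GGGCGG in 50.5% and 66.9%. For GCATGCGC these shares were 4.04% and 5.95%, for AAGATGG 10.1% and 7.45%, for TGACGTCA 3.03% and 3.49%, for CACGTG 7.07% and 10.4%, and for TATAAA 8.08% and 6.29%. CATGTG was in promoters of 13 of 99 isolated and 717 of all 8964 genes with H3K4me3 at an end. The chromosome 2 genes Zfp966, Zfp967, Zfp968, Zfp970 and Zfp973 were among these 13. All of them also held CCAAT, and all but Zfp970 held CCGGAAG. Some of their promoters are near copies of each other, as given further on, so these matches are not independent.

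Within the isolated genes, CCGGAAG was in promoters of 10 of 30 genes with H3K4me3 and p300 at an end. It was in 16 of 69 with H3K4me3 alone and 3 of 28 without H3K4me3 at an end. Of these 28, 7 had H3K4me3 over a start in the promoter table. CCAAT was in 17 of 30, 33 of 69 and 8 of 28. Over all genes CCGGAAG was in 19.8% with H3K4me3 at an end and 11.9% of all promoters, so its higher share there was general. For CCAAT these shares were 39.9% and 39.2%. The split by p300 was not made over all genes. Over all promoters, GGGCGG, the GC box, was in 51.2% of isolated, 40.3% of clustered and 46.3% of all. Its order against all genes was thus the reverse of that among genes marked at an end. It was in 15 of 28 members without H3K4me3 at an end. ACTACAA was in 9 isolated promoters (7.09%, all promoters 3.82%), and all 9 genes had H3K4me3 at an end, as did 414 of 668 over all genes. TATAAA was in 8.66% of isolated and 13.3% of all promoters, again the reverse of the order among marked genes. GCATGCGC (bound by NRF1) was in 3.15% and 3.61%, AAGATGG (by YY1) in 9.45% and 6.35%, TGACGTCA (by CREB) in 2.36% and 2.33% (marked genes in the reverse order), CACGTG in 7.09% and 7.91%, and CATGTG in 13.4% and 11.5%. Of the promoters printed above, those of Zfp91 and Zfp97 held CCGGAAG, Zfp97 and Zfp950 held CCAAT, Zfp511 and Zfp804a held GGGCGG, Zfp72 held ACTACAA and TGACGTCA, Zfp804b and Zfp541 held CATGTG, and Zfp541 also TATAAA. A match is a run of letters and does not show that a factor binds.

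Isolation by name is not isolation from relatives. On chromosome 2, Zfp966, Zfp967, Zfp968, Zfp970 and Zfp973 lie among genes with provisional names. In all, 20 members had at least 4 protein-coding genes of provisional name starting within 500 kb, and 19 of these had H3K4me3 and 5 had p300 at an end, beside 120 and 35 of all 161. The Zfp966 and Zfp967 promoters were identical over all 300 bases, and those of Zfp968 and Zfp973 differed at 1 base. Their H3K4me3 folds were 10.62 and 11.39, and 9.66 and 9.81. How the authors placed reads that match more than one copy is unknown, and its part in these folds was not tested.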

How the data were processed

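H3K4me3 and p300 were profiled by CUT&Tag in 1 library each of wild-type B16 cells, assigned by title. Antibody was used at 1 µg per reaction and libraries had 18 PCR cycles, per the labels' protocols. The genome mm10 and the tools Bowtie2 2.2.5, Picard 2.22.4, deepTools and Trim Galore are listed without roles, per the submitters' processing notes. The peak caller and control, and what was done with repeats and PCR copies, were not given in the sources used here. A single peak list per library was deposited by the authors, with a score, a fold enrichment (a ratio of summit to background), a −log10 p, a −log10 q and a summit offset (other) for each peak. Whether replicates were pooled is not stated.

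From these values, whole-number summit pileups were solved from a Poisson tail and a fold of (pileup + 1) over (background + 1), within 0.002 of the deposited −log10 p, for 99.4% of H3K4me3 and 99.0% of p300 peaks. Of 500 peaks simulated from this same formula 498 were recovered, which checks the solving but not the formula, which is assumed. The simulated backgrounds were lower than those under most H3K4me3 peaks at members' ends. Pileups may hold PCR copies, and a gene without a peak may lie under their lower limit. Gene ends came from RefSeq GRCm38.p6, whose chromosomes are those of mm10, and a peak had to share at least 1 bp with the window. A gene's strongest peak was that of highest fold. Isolated genes, lists and the rule for named genes (the highest folds, widest peaks, most p300 peaks, longest unmarked genes and role lists) were chosen with earlier results of these data known. Planned protein features were not analysed here. Alternatives varied windows, distances, isolation, peak strength and shared ends. Python 3.11.15, pandas 2.3.3, numpy 2.4.6 and scipy 1.17.1 were used.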

Additional observations from a re-analysis of the deposited data

How the results depend on the processing

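With 1 library per antibody, no replicate could be left out, and no paired analysis was possible because each group holds 1 library. The counts of isolated Zfp genes with H3K4me3 at an end, p300 at an end and p300 within 50 kb, and the median folds of H3K4me3 and p300, were recomputed under 63 alternatives. In 60 the count stayed within 1.5 times, or the median within the 95% interval of the median over genes (6.93 to 9.05 for H3K4me3 and 5.79 to 8.10 for p300). These limits compare members with themselves, so they do not show whether a difference from all genes was kept. The interval takes genes as independent draws, although genes are not replicates and some are near copies. It served only as a limit and does not measure the spread between cultures. Where the 161 members were kept, the H3K4me3 count of 120 also had no room to rise 1.5 times. With only the stronger 50% of peaks by −log10 q, p300 was at an end of 22 members (13.7%, all genes 6.50%) and the median p300 fold was 8.14 (all genes 6.70). With the stronger 50% by fold, the median H3K4me3 fold was 9.24 (all genes 8.27). Both keep fewer and stronger peaks by construction. Leaving out members with shared ends gave H3K4me3 at 97 of 135 (71.9%, all genes 42.0%) and p300 at 24 of 135 (17.8%, all genes 9.80%). Leaving out members with at least 4 provisionally named neighbours, an alternative chosen after seeing the data, gave 101 and 30 of 141 (71.6% and 21.3%, all genes 50.5% and 13.5%). Read totals, mapping of repeats and the origin of the background limit every value here.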
